A study of Mus musculus with 69 samples.

Results

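The step between 2 neighbouring stages of early myelopoiesis was examined in wild type (WT) mice by setting granulocyte/monocyte progenitors (GMPs) against common myeloid progenitors (CMPs). These made up 7 of the 69 arrays of the series, taken by their labels: 4 GMP arrays, with the title numbers 4210, 4211, 4212 and 4213, and 3 CMP arrays, with the numbers 4111, 4112 and 4113. Both populations were flow sorted from bone marrow of Bl/6 Taconic mice that carried no transgene and were labelled 7 weeks old. Each array came from an individual mouse, but whether the same mouse gave both populations is not given. GMPs were gated as Lin-, Sca-1-, cKit+, CD34+ cells with high FcγRII/III, and CMPs by the same antigens with low FcγRII/III. Megakaryocyte-erythrocyte progenitors (MEPs, CD34- with low FcγRII/III) of WT mice, 4 arrays, are given as an outside point. The same step was also measured in mCG-PR mice, in 4 GMP arrays (5213 to 5216) and 4 CMP arrays (5113 to 5116). These mice (generation N24, Bl/6 Taconic, labelled 9 weeks old) carry the PML-RARA fusion of acute promyelocytic leukemia in the Ctsg gene, so the fusion is made where cathepsin G is made, and genotype cannot be told apart from the 2 weeks of age. Gates are enrichments and not pure stages, and a sorted population can hold cells already set on different lineages. Populations are named throughout by their labels, which the expression of some libraries goes against.

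CMPs are the progenitors from which GMPs and MEPs both arise. GMPs go on to neutrophils and monocytes, and the precursors of eosinophils and basophils are found close to them. They switch on the serine proteases and peroxidase of the primary granule, under PU.1, C/EBP factors and Gfi1. On the erythroid and megakaryocytic side, GATA-1 with its cofactor FOG-1 (Zfpm1) and Klf1 drive red cell genes, and GATA-1 and PU.1 hold each other in check.

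Each array was an Affymetrix Mouse Exon 1.0 ST array, hybridized with cDNA amplified from 20 ng of total RNA. Values are the authors' normalized intensities on a linear scale; a gene's intensity is the median, on the log2 scale, of its probesets that reached 200 in at least 1 of the 7 arrays, and values in mCG-PR and MEP arrays are given over the same probesets. The number of arrays, not a depth, sets the precision. In all, 114104 probesets of 14136 genes reached that level. Differences are GMP minus CMP on the log2 scale, with the standard error (SE) of the limma fit, and a gene was called at a Benjamini-Hochberg adjusted p under 0.05 with a difference of at least 2-fold.

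The transcript of the receptor that separates the 2 gates did not follow the labels. Fcgr3, which encodes FcγRIII, had intensities of 1522, 1424, 178 and 369 in GMP 4210, 4211, 4212 and 4213, against 238, 1594 and 1376 in CMP 4111, 4112 and 4113. The library labelled CMP 4111 was thus as low as those labelled GMP 4212 and 4213, and the libraries labelled CMP 4112 and 4113 were as high as those labelled GMP 4210 and 4211. Fcgr2b, encoding the inhibitory FcγRII, was ordered in the same way, at 279.6, 366, 146 and 179.6 in the GMP arrays and 131, 318 and 314 in the CMP arrays. The WT MEP arrays, gated as low, read 53.2 to 68.1 for Fcgr3. In mCG-PR mice Fcgr3 was 1029, 798, 986 and 534 in GMP 5213 to 5216, against 147, 92.9, 409 and 529.5 in CMP 5113 to 5116, so no GMP array lay below a CMP array, though GMP 5216 and CMP 5116 hardly differed. As antigens of the gate, these genes check the labels and are no finding. Cd34, on which both gates are positive, read 1816 to 2237 in GMPs and 1966 to 2566 in CMPs, and 40.2 to 56.9 in MEPs. Kit read 1584 to 2759 in GMPs and 1510 to 1917 in CMPs. Ly6a (Sca-1), on which both gates are negative, was under 200 in all 7 arrays, at 54.8 to 73.9 in GMPs and 48.7 to 73.1 in CMPs. The gates were set on surface protein by antibody, which the arrays do not measure. By the transcript of the gate antigen, the 4 libraries labelled GMP 4212, GMP 4213, CMP 4112 and CMP 4113 go against their labels. Results are given with and without them.

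**Figure D1:**
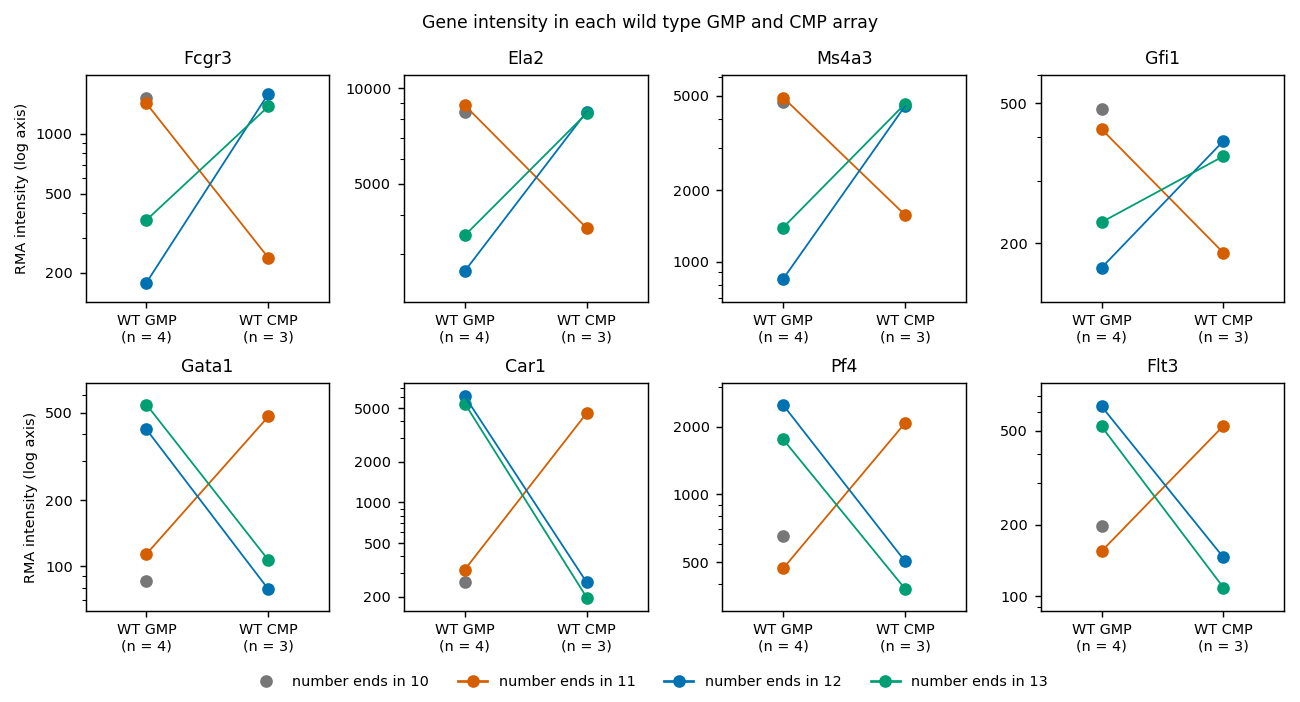
Intensity (log axis) of 8 genes in each WT array, GMP on the left and CMP on the right; lines join arrays whose title numbers end in the same 2 digits. The line of number 11 crosses those of numbers 12 and 13 in every panel, and GMP 4210, which has no CMP of its number, lies with GMP 4211.

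Arrays of one number agreed in the transcripts of the sex chromosomes whatever their population. Xist, the transcript of the inactive X chromosome, read 3945, 4129, 26.3 and 27.0 in GMP 4210, 4211, 4212 and 4213, against 4477, 32.2 and 28.5 in CMP 4111, 4112 and 4113, and 2954, 3428, 31.7 and 38.8 in MEP 4310, 4311, 4312 and 4313. The Y-linked Eif2s3y was reversed, at 9.83, 18.3, 366 and 484 in the GMP arrays and 13.7, 369.8 and 436 in the CMP arrays. By these transcripts numbers 10 and 11 were female and numbers 12 and 13 male in each of the 3 populations, so 2 of the 4 GMP arrays and 1 of the 3 CMP arrays were female. The immediate early gene Fosb, a subunit of AP-1, went with the number too, at 440.3, 509, 141 and 139 in the GMP arrays and 673, 128 and 135 in the CMP arrays. Its relative Fos had 385, 352, 119 and 86.4 in the GMP arrays and 346, 116 and 127 in the CMP arrays. Both were high in the 3 arrays of numbers 10 and 11 and low in the 4 arrays of numbers 12 and 13, GMP and CMP alike. In MEPs Fosb was 176, 258, 36.8 and 15.1 in 4310 to 4313. Of the 21 tested genes of the immediate early list 0 were called between the labelled GMPs and CMPs. The labels do not say whether a number marks 1 animal, and the part of sex in any difference below was not tested.

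**Figure D2:**
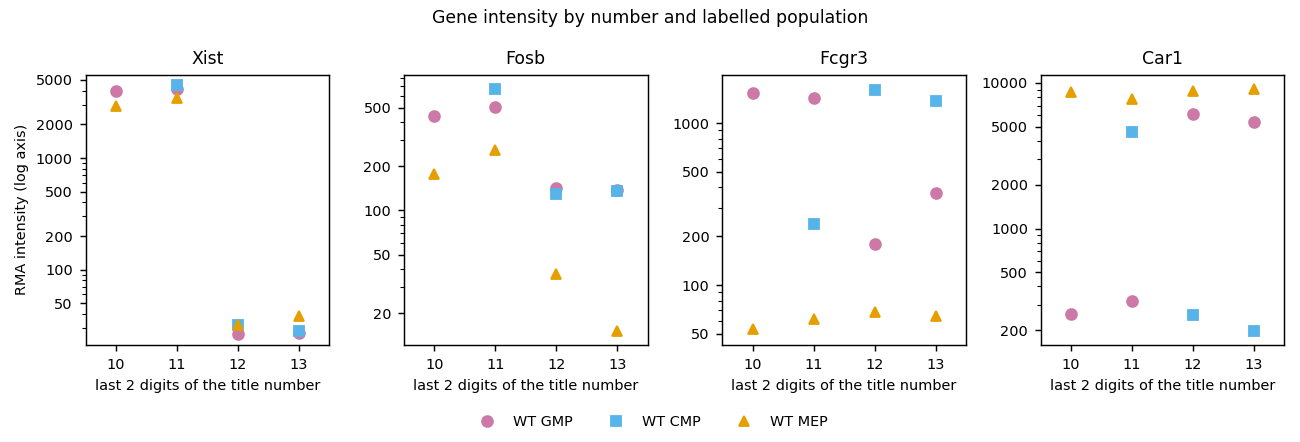
Intensity (log axis) of 4 genes in WT arrays by the last 2 digits of the title number, with the labelled population as the symbol. Xist and Fosb are high in numbers 10 and 11 and low in 12 and 13 within each population, whereas Fcgr3 and Car1 in GMP and CMP arrays change places between number 11 and numbers 12 and 13.

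Taken as labelled, GMPs and CMPs did not differ in any gene past the threshold. Of 14136 genes, 0 were called in limma (0%), and 456 had an unadjusted p under 0.05; of 114104 probesets, 0 were called and 4782 had an unadjusted p under 0.05. The smallest adjusted p was 0.999 for genes and 0.997 for probesets. No gene had probesets called in both directions. The 2 groups did not overlap in 671 genes, 4.75% of those tested, 275 with GMPs higher and 396 with GMPs lower, and in 31 of them the difference was at least 2-fold. The median difference over all genes was -0.02. The 7 arrays themselves differed widely: 761 genes spanned at least 4-fold. One-way analysis of variance on linear intensities, at the methods' unadjusted p under 0.001 with at least 2-fold, called 1 gene from medians of probesets, Neurl1b, and 9 probesets (3 higher and 6 lower in GMPs). The study's own test was made at exon level on core probesets, and its scale is not given in the sources used here. With 4 and 3 arrays an exact permutation test of a single gene has 35 assignments and cannot go below 0.0286. Two-sided, it gave p = 0.686 for Ela2, neutrophil elastase, and p = 0.514 for Car1, a red cell carbonic anhydrase.

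Neurl1b, which encodes a ubiquitin ligase of the neuralized family, was lower in every GMP array than in every CMP array, at 189, 145, 129 and 82.9 in GMP 4210, 4211, 4212 and 4213, against 389, 351 and 320.2 in CMP 4111, 4112 and 4113. The groups did not overlap, and the difference was -1.43 ± 0.26 (SE), with an adjusted p of 0.999 in limma. In mCG-PR mice it read 64.5 to 116 in GMPs and 43.1 to 148 in CMPs, with overlap, and all those values lay below the WT CMP arrays. This gene was singled out after its values were seen.

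GMP 4210, GMP 4211, CMP 4112 and CMP 4113 fell together across labels. CMP 4111 was about equally near to each GMP array. Over the 14136 genes, GMP 4210 and 4211 correlated at r = 0.94 with each other, and with CMP 4112 and 4113 at 0.91 to 0.93. GMP 4212 was nearest to GMP 4213 (r = 0.88) and then to CMP 4111 (0.86), and correlated with CMP 4113 at 0.81. CMP 4112 and 4113 correlated at 0.91 with each other, and with CMP 4111 at only 0.83 and 0.80. CMP 4111 had its highest correlation, 0.857, with GMP 4212, but 0.852, 0.851 and 0.848 with GMP 4211, 4210 and 4213. GMP 4213 correlated at 0.852 with both GMP 4210 and GMP 4211, against 0.848 with CMP 4111. These values describe 7 arrays over genes, which are not independent replicates.

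**Figure D3:**
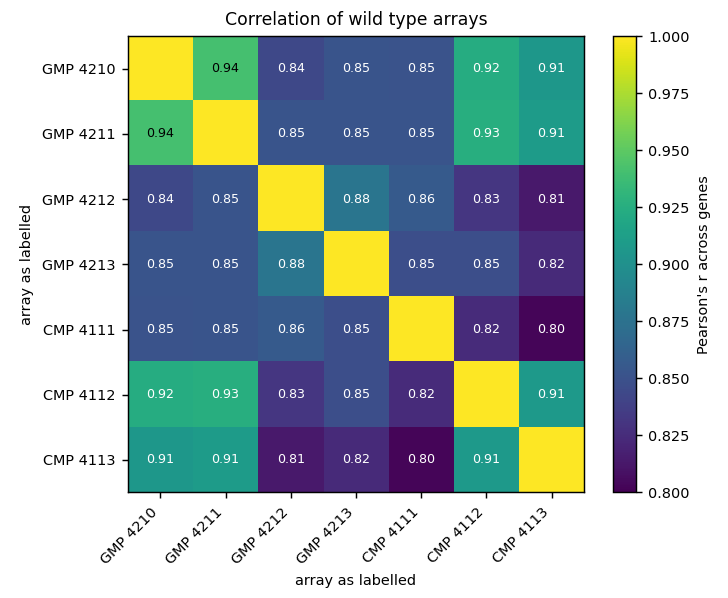
Pearson's r between WT arrays across genes (colour and printed value), in the order of the labels with GMP first. CMP 4112 and 4113 have values above 0.90 with GMP 4210 and 4211, and CMP 4111 has none above 0.86.

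Primary granule genes separated the arrays, but not along the labels. Of 20 listed genes 18 were tested and 0 called, and their median difference was -0.16, against -0.02 for all genes. Ela2, the gene of neutrophil elastase (Elane in RefSeq), read 8430, 8841, 2661 and 3444 in GMP 4210, 4211, 4212 and 4213, against 3631, 8449 and 8349 in CMP 4111, 4112 and 4113. Prtn3, encoding proteinase 3, read 9242, 10250, 4541 and 5530 in the GMP arrays and 5923, 9644 and 9162 in the CMP arrays. In both genes GMP 4210, GMP 4211, CMP 4112 and CMP 4113 were high, GMP 4212, GMP 4213 and CMP 4111 were low, and the labelled groups overlapped. Ms4a3, a membrane protein of committed granulocyte/monocyte progenitors, split in the same way, at 4723, 4913, 846 and 1392 in GMP 4210, 4211, 4212 and 4213, against 1573, 4529 and 4623 in CMP 4111, 4112 and 4113. Prss57, a further granule serine protease, had 1092, 1048, 284 and 380.3 in the GMP arrays and 474, 1189 and 1105 in the CMP arrays. Ctsg, cathepsin G, differed less, at 6794, 7052, 4108 and 4703 in the GMP arrays and 4475, 6254 and 6344 in the CMP arrays. Mpo, myeloperoxidase, read 10810 to 12410 in GMPs and 10930 to 11770 in CMPs, its 4 higher values in the same 4 arrays. MEPs held 122 to 201 for Mpo and 73.5 to 130.1 for Ela2.

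Within each number, GMP minus CMP changed sign between number 11 and the others. For Ela2 the differences in numbers 11, 12 and 13 were 1.28, -1.67 and -1.28, and for Ms4a3 they were 1.64, -2.42 and -1.73. In 15 of the 18 granule genes the sign in number 11 opposed that in both others, against 5118 of all 14136 genes, and the medians of the list were 0.69, -0.85 and -0.78. The probesets of a gene were alike: 8 of 8 of Ela2, 6 of 6 of Prtn3 and 7 of 7 of Ms4a3 had this sign pattern. For Mpo it was 12 of 15.

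Erythroid and megakaryocyte transcription factors ran the opposite way in the same arrays. Of 22 listed factors 21 were tested and 0 called, with a median difference of 0.25, and in 18 of them number 11 opposed numbers 12 and 13. Gata1 had intensities of 85.9, 114, 419.5 and 544 in GMP 4210, 4211, 4212 and 4213, against 480.4, 78.7 and 107 in CMP 4111, 4112 and 4113. Its cofactor Zfpm1 read 155, 183, 537 and 588 in the GMP arrays and 526, 114 and 126 in the CMP arrays, and Klf1, the activator of globin genes, 80.5, 105, 574 and 511 in the GMP arrays and 325, 59.4 and 62.7 in the CMP arrays. Each was high in GMP 4212, GMP 4213 and CMP 4111. Gfi1b, a repressor needed for red cells and platelets, followed with 252, 255, 1235 and 829.8 in the GMP arrays and 696, 207 and 147 in the CMP arrays. Gata2, active in stem and progenitor cells and mast cells, had 340.1, 377, 961 and 809.7 in the GMP arrays and 752, 359.8 and 285 in the CMP arrays. WT MEPs had 1398 to 1663 for Gata1, above every GMP and CMP array. For Gata2 they had 333 to 437, below GMP 4212, GMP 4213 and CMP 4111. Fli1, Lyl1 and Lmo2 differed little, with 1064 to 1264, 1676 to 2112 and 854 to 1020 in GMPs and 1068 to 1301, 1608 to 1889 and 849 to 1124 in CMPs.

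Part of the erythroid and platelet effector genes had the same order of arrays, with number 11 opposed to numbers 12 and 13 in 17 of 29 tested erythroid genes and 15 of 22 platelet genes. Car1, carbonic anhydrase of red cell precursors, read 258, 318, 6115 and 5409 in GMP 4210, 4211, 4212 and 4213, against 4597, 256 and 198 in CMP 4111, 4112 and 4113. Car2 had 153, 193, 1703 and 1253 in the GMP arrays and 1521, 151 and 124 in the CMP arrays, and Rhag, a red cell membrane ammonia channel, 26.9, 43.4, 391 and 278 in the GMP arrays and 343, 17.4 and 35.2 in the CMP arrays. GMP 4212, GMP 4213 and CMP 4111 stood above the other 4 in each. Aqp1, the red cell water channel, read 78.5, 124, 955 and 718 in the GMP arrays and 687, 62.1 and 54.0 in the CMP arrays. Of the erythroid list 29 of 36 genes were tested and 0 called, with a median of 0.15. The list was not uniform. Hbb-b1, an adult globin, did not divide the arrays so, at 1326, 723, 952 and 1187 in the GMP arrays and 901, 633 and 801 in the CMP arrays, nor did Alas2, the erythroid enzyme of heme synthesis, at 119, 154, 37.4 and 123 in the GMP arrays and 251, 79.7 and 167 in the CMP arrays. Pf4, the platelet chemokine, read 656, 469, 2500 and 1758 in GMP 4210, 4211, 4212 and 4213, against 2079, 504 and 380 in CMP 4111, 4112 and 4113. F2r, the thrombin receptor, had 141, 179.6, 1128 and 775 in the GMP arrays and 672, 157 and 139 in the CMP arrays, and Itga2b (CD41) 129, 133, 375 and 298 in the GMP arrays and 319.5, 143 and 145 in the CMP arrays. Of the platelet list 22 of 28 were tested and 0 called; the within-number medians were -1.18, 1.58 and 1.08 for it and -0.70, 0.97 and 0.62 for the erythroid list.

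Promoters of genes at the 2 ends are shown, since the intensities of each set varied together across the arrays. They are 300 bases from RefSeq (GRCm38.p6), 250 before and 50 after the start, with GATAA (bound by factors such as GATA-1) and GAGGAA (a core bound by PU.1 and other ETS factors) in capitals on either strand; no match overlapped another in these 6. The first 3 genes were high in GMP 4210, GMP 4211, CMP 4112 and CMP 4113, and the last 3 in GMP 4212, GMP 4213 and CMP 4111.
Elane, chr10:79886062-79886361, + strand: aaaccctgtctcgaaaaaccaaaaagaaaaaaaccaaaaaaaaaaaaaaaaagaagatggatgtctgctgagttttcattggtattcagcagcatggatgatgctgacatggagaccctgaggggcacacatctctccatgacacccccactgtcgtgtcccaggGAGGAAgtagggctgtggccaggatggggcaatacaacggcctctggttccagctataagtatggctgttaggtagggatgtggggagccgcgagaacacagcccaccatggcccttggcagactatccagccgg
Prtn3, chr10:79879417-79879716, + strand: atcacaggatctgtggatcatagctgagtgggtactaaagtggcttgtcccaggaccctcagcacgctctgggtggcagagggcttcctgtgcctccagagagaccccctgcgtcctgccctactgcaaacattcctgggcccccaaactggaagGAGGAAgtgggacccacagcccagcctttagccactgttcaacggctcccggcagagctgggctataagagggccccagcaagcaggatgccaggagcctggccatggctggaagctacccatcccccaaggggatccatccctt
Ms4a3, chr19:11640802-11641101, - strand: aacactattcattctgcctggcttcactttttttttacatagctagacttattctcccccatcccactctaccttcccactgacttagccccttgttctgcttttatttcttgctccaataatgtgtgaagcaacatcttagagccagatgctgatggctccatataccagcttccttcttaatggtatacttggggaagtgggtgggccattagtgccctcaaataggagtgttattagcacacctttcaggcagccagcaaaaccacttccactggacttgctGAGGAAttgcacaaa
Klf1, chr8:84901732-84902031, + strand: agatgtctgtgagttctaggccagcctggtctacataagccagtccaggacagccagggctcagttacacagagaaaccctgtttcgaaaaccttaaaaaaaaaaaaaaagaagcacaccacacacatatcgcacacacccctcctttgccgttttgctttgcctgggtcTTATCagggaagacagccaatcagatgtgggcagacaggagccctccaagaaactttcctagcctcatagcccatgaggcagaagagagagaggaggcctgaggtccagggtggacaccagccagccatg
Rhag, chr17:40810899-40811198, + strand: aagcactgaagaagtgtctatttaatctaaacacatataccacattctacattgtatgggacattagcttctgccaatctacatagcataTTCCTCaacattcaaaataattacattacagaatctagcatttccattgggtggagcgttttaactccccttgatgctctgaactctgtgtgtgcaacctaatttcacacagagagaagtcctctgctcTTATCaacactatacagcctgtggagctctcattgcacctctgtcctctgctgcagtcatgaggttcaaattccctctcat
Pf4, chr5:90772185-90772484, + strand: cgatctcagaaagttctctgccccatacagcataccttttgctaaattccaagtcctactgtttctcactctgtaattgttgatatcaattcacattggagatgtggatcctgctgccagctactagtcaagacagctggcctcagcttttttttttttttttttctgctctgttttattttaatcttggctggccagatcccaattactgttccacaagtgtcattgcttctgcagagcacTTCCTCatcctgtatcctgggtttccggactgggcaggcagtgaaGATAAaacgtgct

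GATAA stood in none of the first 3 promoters and in each of the last 3, once, whereas GAGGAA stood once in every one of them but Klf1. Over 32851 promoters of 27025 genes of this length, 25.4% held GATAA and 28.3% held GAGGAA. Among the tested granule genes 0 of 19 promoters (16 genes matched) held GATAA and 10 held GAGGAA. In the platelet list 9 of 16 held GATAA and 8 GAGGAA, and in the erythroid list 8 of 22 and 5. In the erythroid and megakaryocyte transcription factor list, which includes Klf1, 9 of 27 promoters held GATAA and 9 held GAGGAA. The promoters shown were picked as examples, and GATAA divided the lists less sharply. The eosinophil and basophil list, whose genes read high in the same arrays as elastase, was unlike the granule list, with GATAA in 8 of 15 promoters and GAGGAA in 3. A match of letters is a description and not a bound site.

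Genes of multipotent cells were high in the same 3 arrays as the red cell genes. Flt3, the receptor of lymphoid-primed progenitors, read 198, 155, 632 and 520.3 in GMP 4210, 4211, 4212 and 4213, against 524, 146 and 109 in CMP 4111, 4112 and 4113. Meis1, a homeodomain partner of Hox proteins, read 199, 168, 413 and 318 in the GMP arrays and 438, 152 and 90.6 in the CMP arrays, and Mycn 68.6, 53.8, 555 and 335 in the GMP arrays and 274, 88.1 and 51.8 in the CMP arrays. Angpt1, a ligand of Tie2, had 277, 218, 941 and 711 in the GMP arrays and 626, 152 and 187 in the CMP arrays, and Adgrg1 (GPR56) 1151, 1011, 2824 and 2370 in the GMP arrays and 2449, 859 and 887 in the CMP arrays. All 26 probesets of Flt3 and all 18 of Meis1 opposed in sign between number 11 and numbers 12 and 13. Of the list 32 of 38 genes were tested, 0 called, and 23 had number 11 opposed to the other numbers. Dntt, the terminal transferase of lymphoid priming, also read higher there, at 48.6, 29.0, 261 and 269.8 in the GMP arrays and 255, 16.1 and 31.9 in the CMP arrays, below 200 in the other 4 arrays. The lymphoid list as a whole (13 of 26 tested, 0 called) had within-number medians of -0.02, -0.14 and -0.02, and Cd79b, of the B cell receptor, 703, 822, 647 and 513 in the GMP arrays and 546, 714 and 727 in the CMP arrays.

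Several myeloid transcription factors divided the arrays less than the granule genes. Cebpa, the C/EBP factor needed to form GMPs, read 427, 417, 312 and 319 in the GMP arrays and 328, 498 and 362 in the CMP arrays. Spi1 (PU.1) had 1448, 1217, 1154 and 987 in the GMP arrays and 901, 1362 and 1194 in the CMP arrays, and Irf8, the monocyte and dendritic cell factor, 806, 678, 611 and 703 in the GMP arrays and 571, 841 and 787 in the CMP arrays. For these 3 the sign in number 11 still opposed the others, by small steps. Gfi1, a repressor needed for neutrophils, split instead like the granule genes, at 483, 422, 170.2 and 229 in GMP 4210, 4211, 4212 and 4213, against 188, 391 and 354 in CMP 4111, 4112 and 4113. Cebpe, of later granule genes, read 629, 308, 116 and 139 in the GMP arrays and 148, 528 and 337 in the CMP arrays, and Tfec, of the MiT family, 1270, 1446, 367 and 422 in the GMP arrays and 509.6, 1347 and 1359 in the CMP arrays. The list had 22 of 25 genes tested and 0 called, and its within-number medians were 0.30, -0.25 and -0.32. Rara read 162, 185, 441 and 285 in the GMP arrays and 119.8, 281 and 320.3 in the CMP arrays and Pml 314, 377, 419 and 322 in the GMP arrays and 414, 254 and 303 in the CMP arrays, and neither followed the labels or the granule genes.

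Eosinophil and basophil genes were high in the arrays with high elastase. Prg2, eosinophil major basic protein, read 2812, 2431, 88.7 and 149 in GMP 4210, 4211, 4212 and 4213, against 68.7, 2394 and 3834 in CMP 4111, 4112 and 4113. Epx, eosinophil peroxidase, had 281, 236, 68.1 and 70.0 in the GMP arrays and 35.9, 219 and 615 in the CMP arrays, and Ear2, an eosinophil ribonuclease, 379.5, 417, 58.7 and 24.3 in the GMP arrays and 24.3, 283 and 1685 in the CMP arrays. CMP 4113 was the highest array in all 3. Prss34, a basophil protease, read 328, 315, 50.4 and 62.6 in the GMP arrays and 117, 508 and 378 in the CMP arrays, and Hdc, which makes histamine, 1155, 1068, 193 and 299 in the GMP arrays and 401, 951 and 788 in the CMP arrays. Cpa3, mast cell carboxypeptidase, did not split so, at 719, 563, 786 and 503 in the GMP arrays and 229, 659 and 777 in the CMP arrays. Of 26 listed genes 17 were tested, 0 called and 14 opposed in number 11, with a within-number median of 1.28 in number 11 and -0.80 in number 13.

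Receptors for growth factors were mixed. Csf3r, the G-CSF receptor, read 732, 826, 301 and 435 in the GMP arrays and 465, 705 and 622 in the CMP arrays, low in the arrays with low elastase. Csf1r, the M-CSF receptor, had 780.3, 824, 692 and 763 in the GMP arrays and 546, 965 and 1171 in the CMP arrays, and Csf2rb, the shared chain for GM-CSF, IL-3 and IL-5, 579, 563, 397 and 316 in the GMP arrays and 339.8, 802 and 681 in the CMP arrays. Il6ra, of the IL-6 receptor, did not overlap between the groups, with 876, 888, 640.2 and 602 in the GMP arrays, all below the 968, 989 and 920.1 of the CMP arrays. Its difference was -0.37 ± 0.18 (SE; adjusted p = 0.999 in limma), and it was 1 of the 32 tested receptors without overlap, a share below the 4.75% of all genes. Il3ra overlapped, with 276 to 404 in GMPs and 275 to 441 in CMPs. Of 36 receptors 32 were tested and 0 called, with a median difference of -0.05. Among monocyte and dendritic cell genes (28 of 32 tested, 0 called), Clec12a read 2539, 2713, 1932 and 1872 in the GMP arrays and 1285, 3409 and 3354 in the CMP arrays. Ccr2, the receptor for the chemokine CCL2, read 1131, 1175, 1017 and 938 in the GMP arrays and 806, 1408 and 1066 in the CMP arrays. Both were lowest in CMP 4111, as was Cybb, the catalytic subunit of the phagocyte oxidase, at 354, 416, 180.2 and 152 in the GMP arrays and 104, 487 and 441 in the CMP arrays. Its partners Ncf1 and Ncf4 had 626, 669.8, 382 and 426 in the GMP arrays and 335, 683 and 854 in the CMP arrays for Ncf1 and 475, 526, 248 and 334 in the GMP arrays and 219.9, 491 and 479.6 in the CMP arrays for Ncf4. In 5 of 7 tested oxidase genes number 11 opposed numbers 12 and 13, and 0 were called.

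Genes of the secretory machinery had the pattern of the granule genes. Of 36 tested genes of folding and secretion in the endoplasmic reticulum 0 were called, and 31 had number 11 opposed to numbers 12 and 13, with medians of 0.55, -0.60 and -0.51. Pdia6, a disulfide isomerase, read 2511, 2639, 1185 and 1473 in the GMP arrays and 1705, 2334 and 2534 in the CMP arrays, and Sdf2l1, of the BiP chaperone complex, 1172, 1342, 319.9 and 447 in the GMP arrays and 619, 1146 and 880.3 in the CMP arrays. Alas1, the housekeeping enzyme that starts heme synthesis, read 1997, 2292, 567 and 818 in GMP 4210, 4211, 4212 and 4213, against 815, 2342 and 2143 in CMP 4111, 4112 and 4113. Blvrb, a biliverdin reductase of red cells, was opposite, at 264, 230.3, 994 and 1162 in the GMP arrays and 891, 274 and 281 in the CMP arrays, and the heme and iron list as a whole (22 tested, 0 called) had within-number medians of -0.02, 0.13 and -0.02. Other groups had within-number medians close to 0, such as replication and mitosis (40 tested, 0.08, -0.14 and -0.16) and ribosome biogenesis (30 tested, 0.06, -0.03 and -0.05). Ribosomal protein genes (44 tested) had -0.03, -0.21 and -0.02. Interferon stimulated genes (19 tested) had -0.25, 0.16 and 0.49, and integrins and homing receptors (26 tested) 0.09, 0.04 and -0.11. In these 5 lists 0 genes were called. Within the interferon list Usp18, an ISG15 protease, was highest in CMP 4111, at 239.5, 129.6, 179.6 and 185 in the GMP arrays and 538, 161 and 145 in the CMP arrays.

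Markers of cells that the gates should leave out were also read. Ly6g, of neutrophils, and Cd8a lay under 200 in all 7 arrays, at 9.20 to 30.6 and 46.5 to 52.8 in GMPs and 18.0 to 41.3 and 48.9 to 58.3 in CMPs. The T cell genes Cd3e and Cd4, with 2 and 1 tested probesets, read above 200 in all 7 arrays. Cd3e had 218 to 281 in GMPs and 279.6 to 296 in CMPs, and Cd4 349.5 to 494 in GMPs and 376 to 532 in CMPs. WT MEPs had similar levels, at 250 to 325 for Cd3e and 382 to 481 for Cd4. Il7r (CD127), also a lineage antigen of the gates, read 20.3 to 58.85 in the 7 arrays. Stromal and vascular genes (11 of 18 tested) had summed intensities of 2649 to 3342 over the GMP arrays and 2893 to 2899 over the CMP arrays, and lymphoid genes of 3852 to 4361 over the GMP arrays and 4029 to 4223 over the CMP arrays. Secondary granule and mature neutrophil genes (22 of 24 tested, 0 called) summed to 11450 to 16520 over the GMP arrays and 15770 to 17560 over the CMP arrays, and of these Hp, haptoglobin, split with the primary granule at 2469, 2356, 380.4 and 588 in the GMP arrays and 621, 1895 and 2101 in the CMP arrays. Camp, of secondary granules, did not, at 274, 567, 400.1 and 683 in the GMP arrays and 682, 574 and 577 in the CMP arrays. The part of other cells in these levels was not tested, and in sorted bulk samples fewer cells of a type and less RNA per cell cannot be told apart.

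**Figure D4:**
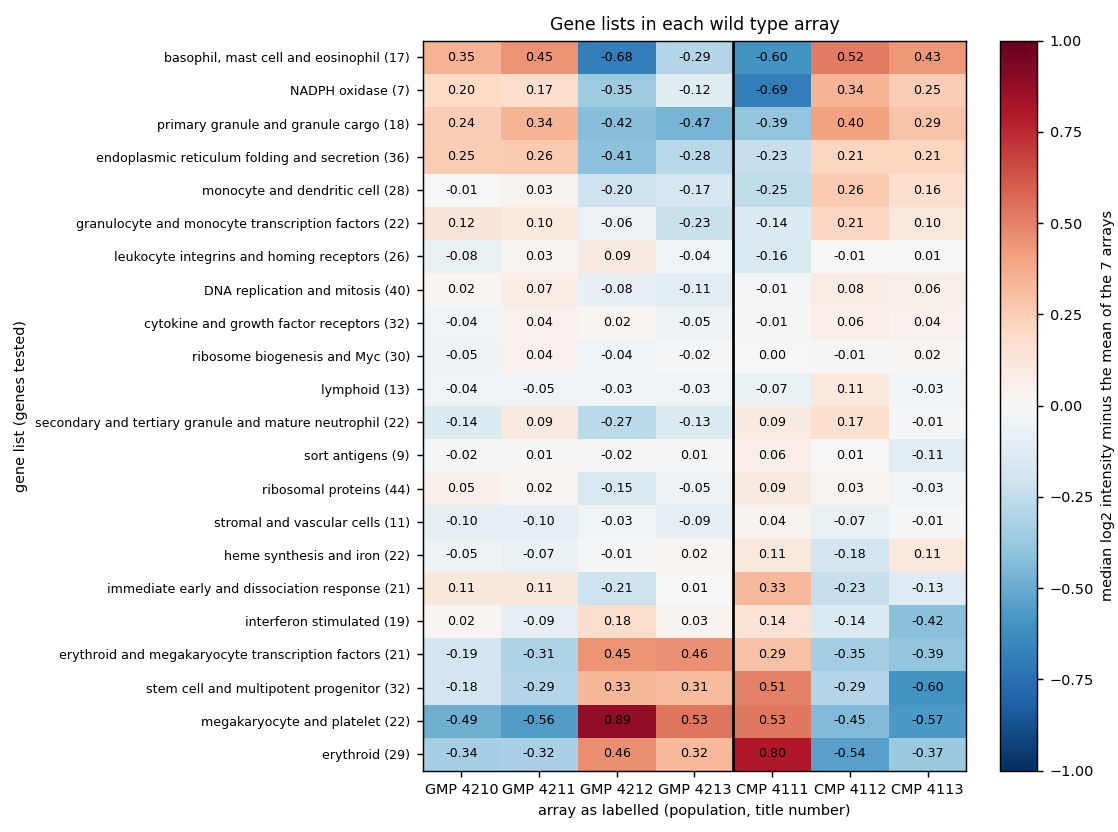
Median over the tested genes of each list of log2 intensity minus that gene's mean over the 7 arrays, for each WT array (colour and printed value), GMP left of CMP; lists are ordered by GMP 4211 minus CMP 4111. Primary granule genes lie at 0.34 in GMP 4211 and -0.39 in CMP 4111, but at -0.42 in GMP 4212 and 0.40 in CMP 4112.

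Over all genes, the within-number difference of number 11 opposed those of numbers 12 and 13. GMP 4211 minus CMP 4111 correlated at r = -0.35 with GMP 4212 minus CMP 4112 and at r = -0.34 with GMP 4213 minus CMP 4113, and these 2 correlated at r = 0.37 (14136 genes, which are not independent; the 3 differences share no arrays). Of 257 genes that differed at least 2-fold in all 3 numbers, 86 were higher in the GMP array in number 11 and lower in numbers 12 and 13, and 136 the reverse. Those that kept 1 direction were 5 higher and 5 lower in GMPs. Besides Neurl1b they included Selp, P-selectin of platelets, at 85.0, 239, 133 and 159.9 in the GMP arrays and 113, 28.0 and 71.2 in the CMP arrays, and B3galt4, a galactosyltransferase, at 77.3, 105, 124 and 224 in the GMP arrays and 50.3, 55.7 and 58.0 in the CMP arrays. The groups overlapped in Selp and not in B3galt4, which has 1 tested probeset. In the rest the GMP array was higher in number 12 only (4 genes), lower in number 12 only (9), higher in number 13 only (9) or lower in number 13 only (3).

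The mCG-PR arrays hold the same step in other mice. They called 12 of 15885 genes in limma, 1 higher in GMPs (0.0063%) and 11 lower (0.0692%), with Car1 at 143, 154, 156 and 58.4 in GMP 5213 to 5216, against 6608, 5074, 1956 and 1631 in CMP 5113 to 5116. The difference was -4.76 ± 0.51 (SE; adjusted p = 0.0173). Pf4 differed by -2.67 ± 0.30 (adjusted p = 0.0173), Flt3 by -1.89 ± 0.26 (adjusted p = 0.0410) and Dntt by -3.40 ± 0.34 (adjusted p = 0.0173). Ces2g, Slc14a1 (a urea transporter of red cells), Rhag, Mycn, Prkcq, Bach2 and Mef2c were the other genes that were lower. Prg3, of eosinophil granules, was the gene that was higher, by 2.66 ± 0.28 (adjusted p = 0.0173). Ela2 (1.65 ± 0.58, adjusted p = 0.732) and Ms4a3 (2.37 ± 0.86, adjusted p = 0.768) did not pass. The count rests on few arrays: without CMP 5113, 5114 or 5115 or GMP 5213, 5214 or 5215 it was 0, without CMP 5116 it was 11 and without GMP 5216 it was 8. Without both CMP 5114 and GMP 5216 it was 0. With the title number as a replicate block it was also 0, and with a random block it was 8. By list the median differences were 0.43 for primary granule genes, -0.28 for erythroid genes, -0.44 for platelet genes and 0.01 for all genes.

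Those 11 genes ordered the WT arrays, which had no part in choosing them. The mCG-PR arrays chose them, so their values there are a description. Their mean log2 intensity was 7.23, 7.12, 9.72 and 9.49 in GMP 4210 to 4213, against 9.47, 6.99 and 7.03 in CMP 4111 to 4113. In mCG-PR mice it was 6.58, 6.62, 6.26 and 6.32 in GMP 5213 to 5216, against 9.58, 9.32, 8.89 and 8.67 in CMP 5113 to 5116, and in WT MEPs 8.15, 8.17, 8.33 and 8.39. GMP 4212, GMP 4213 and CMP 4111 thus lay within or above the range of mCG-PR CMPs, and the other 4 WT arrays lay below it and above the mCG-PR GMPs. Slc14a1 alone read 329, 281, 2184 and 1589 in the GMP arrays and 1414, 223 and 164 in the CMP arrays, and Ces2g 58.7, 67.2, 735 and 809.7 in the GMP arrays and 1056, 53.3 and 75.2 in the CMP arrays. Across 13942 genes the mCG-PR difference correlated at r = 0.34 with the difference in WT number 11, at r = -0.41 with number 12 and at r = -0.35 with number 13, which share no arrays with it. The mCG-PR numbers were themselves not alike over 14136 genes. GMP minus CMP of number 13 correlated with that of number 14 at r = 0.38, number 14 with number 16 at r = -0.39 and number 13 with number 16 at r = -0.12. WT number 11 correlated with mCG-PR numbers 13, 14, 15 and 16 at r = 0.35, 0.29, 0.18 and -0.06.

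**Figure D5:**
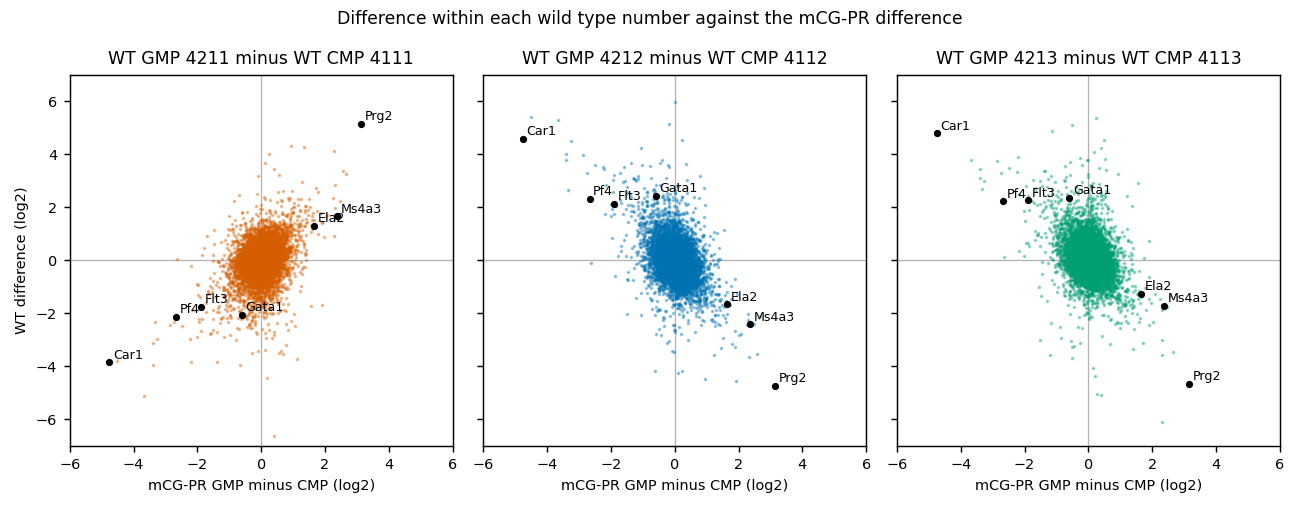
Each point is a gene, with the mCG-PR difference between GMPs and CMPs (log2, x) against the WT difference within 1 title number (log2, y), for numbers 11, 12 and 13. The cloud rises in number 11 (r = 0.34) and falls in number 12 (r = -0.41) and number 13 (r = -0.35); Car1 and Prg2 lie at its ends.

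The step was next compared between genotypes, as mCG-PR GMP minus CMP less WT GMP minus CMP. Of 16079 genes 0 passed an adjusted p under 0.05 in limma, and 790 had an unadjusted p under 0.05. The 5 genes with the smallest p had adjusted p between 0.687 and 0.952. Their differences were Mindy4 (-1.87), Mef2c (-1.86), Abca4 (-1.18), Atxn7l2 (-0.99) and Il1r1 (-1.58). This fit took its probesets from the arrays of both genotypes, whereas intensities are given over the probesets set on the WT arrays. Over the latter, Abca4 read 251 to 427 in mCG-PR GMPs and 321 to 378 in mCG-PR CMPs, with overlap. It read 217 to 297 in WT GMPs and 236 to 294 in WT CMPs. The difference of -1.18 is not seen in these intensities and depends on the choice of probesets. Mef2c, a factor of the MADS family, read 199 to 316 in mCG-PR GMPs and 737 to 851 in mCG-PR CMPs, against 596 to 1111 in WT GMPs and 553 to 955 in WT CMPs. Mindy4, encoding a deubiquitinase, read 53.5 to 101 in mCG-PR GMPs and 212 to 368 in mCG-PR CMPs, against 150.2 to 252 in WT GMPs and 173 to 189 in WT CMPs. In both genes the mCG-PR groups were apart and the WT groups overlapped. Without the 4 WT libraries that go against their labels the count was also 0.

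Without those 4 libraries, a choice made after seeing the data, the WT comparison was left with GMP 4210 and 4211 against CMP 4111. The spread was then pooled over all CMP, GMP and MEP arrays of both genotypes as 6 groups, so the lone CMP array is assumed to vary like the other groups. In limma 67 of 14136 genes were called, 9 higher in GMPs (0.0637%) and 58 lower (0.41%). Prg2 differed by 5.25 ± 0.89 (SE; adjusted p = 0.0167), and Epx by 2.84 ± 0.55 (adjusted p = 0.0251). The other 7 genes that rose were Ear6, Mmp19, Glrx, Gys1, Chd7, Mrps23 and Kctd9. Among those that were lower, Car1 differed by -4.00 ± 0.64 (adjusted p = 0.0142), Gata1 by -2.28 ± 0.49 (adjusted p = 0.0485) and Rhag by -3.33 ± 0.61 (adjusted p = 0.0197). By list, 7 of 29 erythroid genes and 4 of 22 platelet genes were called lower, among them Car2, Aqp1, Ermap, Ank1, Gp1bb, Gp5 and Mmrn1. Atp7b of the erythroid list and Esam of the platelet list reached 200 in CMP 4111 only, at 225 and 232, and 6 and 3 are left without them. The left-out libraries were chosen by Fcgr3 in these same arrays, after the values of lineage genes had been seen. Genes that vary with Fcgr3 or with the lineage genes are therefore not independent of the choice. Of the granule list 0 of 18 were called, with a median of 0.65, and Fcgr3 differed by 2.63 ± 0.69 (adjusted p = 0.119).

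The left-out libraries were then read for the same genes, as a description. They were left out for running opposite to the kept arrays, so opposite signs in them are largely set by the choice. In 47 of the 67 (70.1%) both GMP 4212 minus CMP 4112 and GMP 4213 minus CMP 4113 had the opposite sign, against 5120 of all 14136 genes (36.2%), and in 30 both were opposite by at least 2-fold. In 1 gene, Tmem79, both had the same sign by at least 2-fold. In some genes CMP 4111 lay apart from every other WT GMP and CMP array, on either side of 200. It was lowest in Glrx (238, against 660 to 1255), Mrps23 (300, against 555 to 874) and Kctd9 (95.0, against 191 to 277). It was highest in Tradd (658, against 206 to 286). A single array carries part of the list: 27 of the 67 reached 200 in CMP 4111 only, such as Robo4, at 97.9, 96.6, 94.2 and 89.4 in the GMP arrays and 377, 96.9 and 109 in the CMP arrays, and Il1r2, at 39.2, 42.9, 17.6 and 33.8 in the GMP arrays and 468, 30.1 and 38.9 in the CMP arrays. In mCG-PR mice 55 of the 67 were tested, and 42 of them (76.4%) had the same sign there, against 7911 of all 13942 genes in both fits (56.7%).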

How the data were processed

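Myeloid progenitors of individual mice had been hybridized to Affymetrix Mouse Exon 1.0 ST arrays after amplification with a NuGen kit. The authors deposited one normalized intensity per probeset and array on a linear scale, made with the robust multi-array average (RMA) in Affymetrix Expression Console, and Partek 6.6 and the build mm9 are listed in the submitters' processing notes. RMA equalizes the distributions of the arrays, so shifts common to all genes are removed; medians were 73.4 to 75.5 in the 7 arrays. No pair of arrays was identical. The deposited values were taken as log2 and no further normalization was made. Of 451804 probesets 259411 had 1 gene symbol and were kept, and 1897 with several and 190496 with none were left out; 3391 of 20958 symbols were updated by RefSeq synonyms. Differences were tested by moderated linear models, two-sided, in R 4.3.3 with the package limma 3.58.1 (Benjamini-Hochberg adjustment over all features), on probesets with at least 200 in 1 or more of the arrays compared, and on genes. Within mCG-PR mice the filter was set on those arrays, and for the contrast between genotypes on the GMP and CMP arrays of both. The fit was checked on simulated independent normal values with shifts added. These do not copy the split of the WT arrays, so the check gives no power for them. Each sample came from an individual mouse, but whether 1 mouse gave both populations is not given in the sources used here, and p-values measure the spread between these arrays. By correlation of deviations, the shared last digits of the title numbers did not regularly pair the samples. For mCG-PR numbers 13, 14, 15 and 16 the values were 0.156, -0.289, 0.176 and -0.358. These do not decide pairing, and sex transcripts placed the male at number 13 in both mCG-PR populations. For the WT arrays this check cannot decide pairing, since the GMP and CMP array of each number lay at opposite ends of the lineage genes. Groups came from the labels alone. Named were the gate antigens, sex-linked genes and a fixed set of myeloid genes whatever their change, the 15 genes with the largest called rise and fall (there were 0), up to 6 called members of each list (0), the 5 genes with the smallest p for the genotype contrast, and further genes picked after their values were seen, as examples of the lists. The members and gene lists were chosen with earlier results of these data known. Alternatives changed the filter, normalization, prior, samples, block, gene summary and test, and left out each array. Promoters are those of RefSeq on GRCm38.p6, which is not the build of the arrays, and were matched by gene symbol.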

Additional observations from a re-analysis of the deposited data

Results flagged for a closer look

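In groups of 4 arrays, a single array far from the other 3 was looked for in each of a set of tested genes. These were genes named by rule and others, such as Car1, picked after their values were seen. The gap to the nearest array was divided by the whole range on the log2 scale. It was set against Dixon's critical value for 4 samples. Of 126 groups checked 7 passed, and chance alone gives about 1 in 20. All 7 lay in mCG-PR arrays and none in the WT GMPs, and 4 of them were transcripts of the sex chromosomes. The rule cannot flag arrays that split into pairs, as the WT GMPs did, and the WT CMPs, a group of 3, were not checked. Xist read 37.1 in GMP 5213, against 3822 in the nearest other GMP array (ratio 0.972), and 32.9 in CMP 5113, against 5068 in the nearest (0.992). Eif2s3y, on the Y chromosome, read 521 in GMP 5213, against 17.8 (0.929), and 455 in CMP 5113, against 18.0 (0.887). By these transcripts number 13 was the male of the mCG-PR set in both populations. In GMP 5216, Kit read 1159, against 1697 in the nearest array (0.916), and Car1 read 58.4, against 143 (0.914). Prtn3 read 4556 in GMP 5214, against 6933 (0.838).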

How the results depend on the processing

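Taken as labelled, WT GMPs against CMPs gave 0 called genes and 0 called probesets in limma under each filter, normalization, prior and gene summary tried, with all 6 groups in the fit and without any 1 array. Analysis of variance on linear intensities called 1 gene and 9 probesets. Without the 4 libraries that go against their labels, chosen after seeing the data, 67 genes and 73 probesets were called, and Gata1 (-2.281), Car1 (-4.004) and Dntt (-2.763) reversed; of the other named genes 28 moved by more than the replicate spread and 11 did not. The mCG-PR count of 12 became 24 with 200 required in 3 arrays, 23 with a trended prior, 0 without CMP 5114 and GMP 5216, and 0 to 11 without 1 array. The genotype contrast gave 1 gene, Mindy4, with 200 required in 3 arrays (-2.36, adjusted p = 0.00219 in limma) and 1, again Mindy4, without CMP 5114 and GMP 5216 (-2.34, adjusted p = 0.0478), and 0 without any 1 array. The causes were not tested. With the title number as a replicate block the WT comparison gave 0 genes and the mCG-PR comparison 0. Deviations of same-numbered WT arrays correlated at -0.295, -0.208 and -0.142, and 0 of 3 GMP arrays correlated best with the CMP array of its own number. These values cannot decide pairing, since the arrays of each number lay at opposite ends of the lineage genes. Apart from leaving out arrays, the differences of single named genes stayed within the replicate spread in 328 cases and moved in 8. The 4 and 3 arrays, signals near background and the amplification of little RNA limit the precision.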

Other observations

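Beyond the genes described, some of the genes with a wide range over the 7 WT arrays were read, a choice made after their values were seen. Mt2, a metallothionein, read 214, 44.8, 793 and 934 in GMP 4210 to 4213, against 1581, 20.2 and 68.0 in CMP 4111 to 4113, and 5048 in MEP 4310. Nqo1, a quinone reductase, read 51.0, 52.7, 319 and 221 in the GMP arrays and 237, 44.9 and 16.9 in the CMP arrays, and Slamf1 (CD150), used in stem cell gates, 6.72, 20.0, 220.2 and 94.1 in the GMP arrays and 127, 23.8 and 17.6 in the CMP arrays. These 3 genes were high in GMP 4212, GMP 4213 and CMP 4111, though GMP 4210 lay apart from GMP 4211 in Mt2. Olr1, a lectin-like receptor for oxidized LDL, was opposite, at 270, 312, 39.0 and 138 in the GMP arrays and 30.5, 456 and 356 in the CMP arrays. Other wide genes rested on a single array. Aff2 read 508 in CMP 4111 and at most 106 in the other 6 arrays, and Trmt61b read 422 in CMP 4113 and at most 59.8 elsewhere.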
